A study of Mus musculus with 33 samples.

Results

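The distribution of RNA between axons and cell bodies was described in mouse motoneurons after knockdown of hnRNP R, which binds RNA and belongs to the heterogeneous nuclear ribonucleoproteins. Of 37926 records in each of the authors' deposited tables, 13575 reached 1 FPKM (fragments scaled to transcript length and sequencing depth) in the axon or the soma of the knockdown cells, and these were kept. A record is 1 gene in 13255 cases and a merge of neighbouring genes, sharing 1 value, in 320. The axon to soma ratio of a record is the log2 of axon over soma FPKM, with 0.1 FPKM added to both, less the median over the kept records. A record is called axon-rich or axon-poor here when it lies at least 4-fold above or below that median.

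The cells were primary motoneurons of CD-1 mice in microfluidic culture, in which axons extend through narrow channels into a compartment of their own. Total RNA was sequenced from the axonal and the somatodendritic side (called soma here) of 3 groups of cultures: hnRNP R knockdown with 3 libraries per compartment, a GFP control with 4 and a 7SK knockdown with 4. The labels name no treatment; the sources used here do not state the age of the animals, how the knockdown was done or whether axon and soma libraries came from the same chambers. Each group has 1 FPKM value per compartment, so no spread between libraries could be measured, read depth is unknown, and a level of 0 says only that the record is listed at 0. Levels of Hnrnpr went with the labels. They stood at 3.98 FPKM in knockdown axons against 9.93 in control axons, and at 10.8 in knockdown somata against 27.2 in control somata. The authors' test of the somatic difference gave q = 0.310, and the axonal difference had no completed test.

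Axons lie far from the nucleus, and part of their protein is made locally from messenger RNAs that are carried there bound to proteins. hnRNP R is one such RNA-binding protein. It is found in motor axons as well as in the nucleus, is known to bind the mRNA of beta-actin, and associates with 7SK, the abundant noncoding RNA that keeps P-TEFb, a kinase needed for transcription elongation, inactive. RNAs for ribosomes and mitochondrial energy supply are commonly reported in axons of several neuron types.

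Most RNAs were spread between axon and soma much alike. In the knockdown cells 8131 records (59.9%) lay within 2-fold of the median ratio, with quartiles of -0.75 and 0.84. Axon-rich records numbered 1341 (9.88%) and axon-poor records 1009 (7.43%). Before centring, the median record stood 0.56 lower in axons on the log2 scale. Read on the deposited scale without centring, 957 records were axon-rich and 1563 axon-poor, so the split between the classes depends on the centre while the order of records does not. Axon and soma values come from different tables, each scaled on its own, so a ratio has no absolute zero and was not itself tested. All ratios below are relative to the median record.

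**Figure D1:**
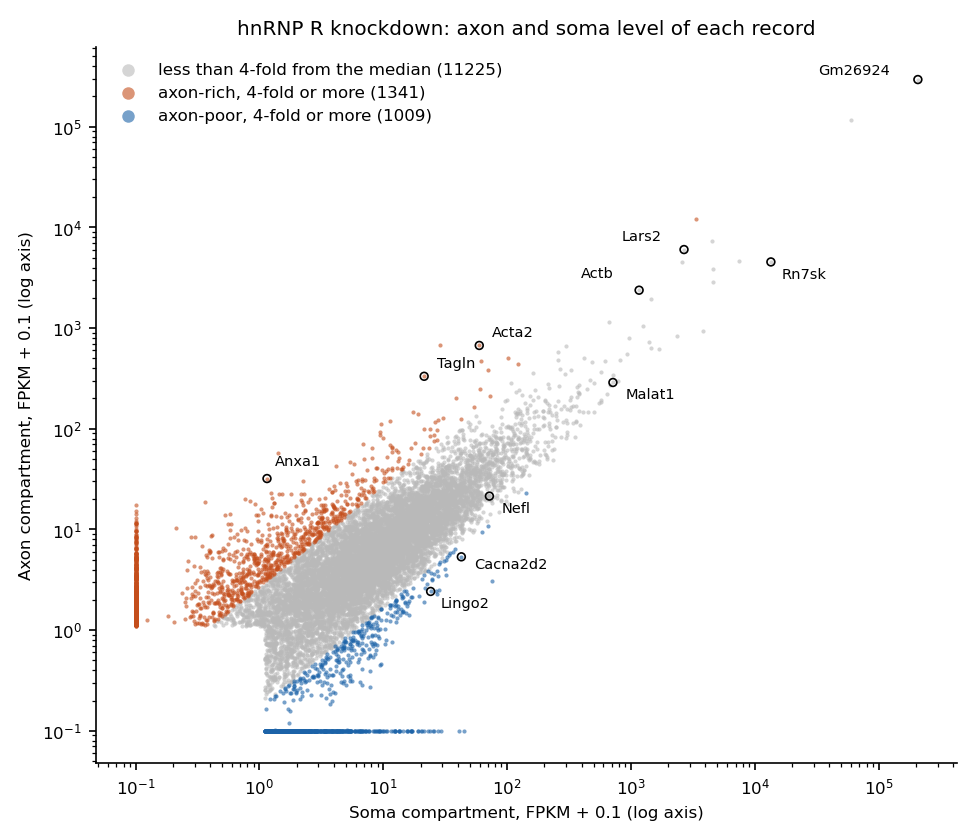
Axon against soma FPKM (0.1 added, both axes logarithmic) of the 13575 kept records in hnRNP R knockdown cells, 1 point per record. Axon-rich records (orange, 1341) and axon-poor records (blue, 1009) lie mostly at low levels, and the straight rows of points at the edges are records listed at 0 in 1 compartment.

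Both classes were largely made of faint RNAs. Of the axon-rich records 59.5% were under 5 FPKM, and of the axon-poor ones 73.3%. A total of 506 axon-rich records were listed at 0 in the soma and 683 axon-poor records at 0 in the axon. Control cells, which share no library with the knockdown groups, give a ratio to set beside that of each record. A difference from it holds both measurement error and any effect of the knockdown, which cannot be told apart here. Between 1 and 5 FPKM the ratio of a record differed from its control ratio by a median of 1.08 log2 units. That difference was 0.64 from 5 to 20 FPKM, 0.46 from 20 to 50, 0.38 from 50 to 200 and 0.34 at 200 FPKM or more. Across records, Pearson's correlation of knockdown and control ratios rose with level from 0.26 (4617 records) to 0.92 (126 records), as a description of values that share gene models and scaling. Named records were therefore taken from the 2898 that reached 20 FPKM, where 123 (4.24%) were axon-rich and 42 (1.45%) axon-poor.

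**Figure D2:**
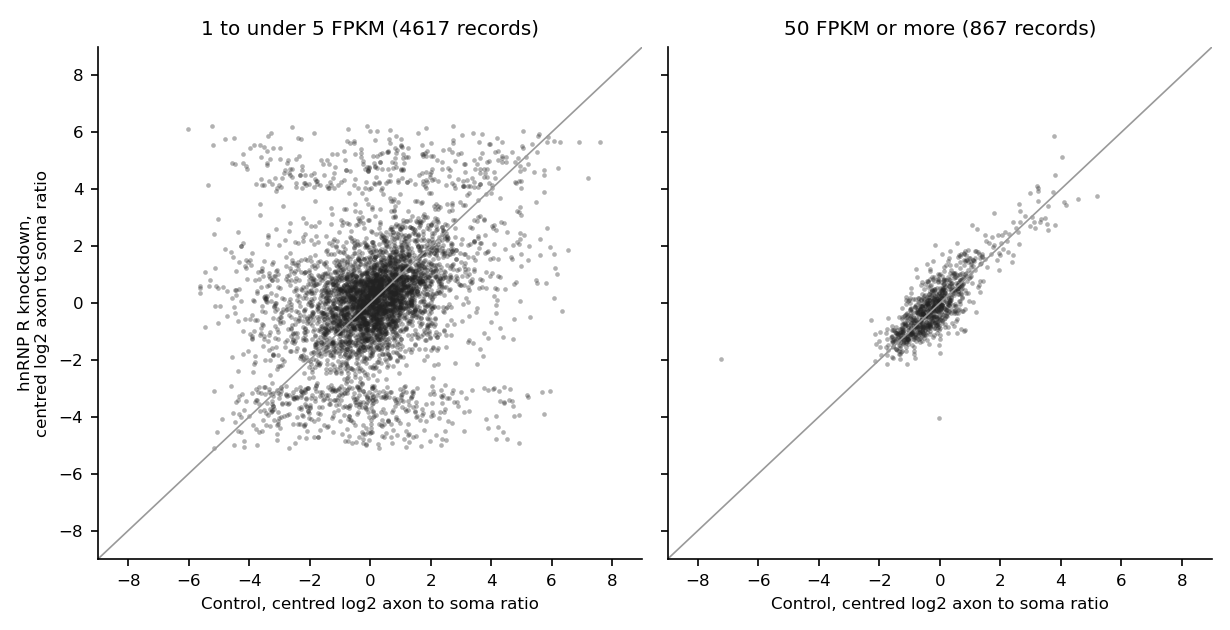
Centred log2 axon to soma ratio in hnRNP R knockdown (vertical) against control (horizontal), for records of 1 to under 5 FPKM on the left and of 50 FPKM or more on the right; records listed at 0 in both control compartments are left out and the line marks equal ratios. The faint records scatter over the whole panel, with bands from records listed at 0 in 1 knockdown compartment, whereas the abundant records follow the line.

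The 15 records most tilted to the axon included 3 annexins and 3 cytoskeletal genes. Highest was 1500015O10Rik (Ecrg4, chr1:43730602-43742578, GRCm38), a secreted peptide precursor, with 56.8 FPKM in the axon and 1.32 in the soma, 58.9-fold above the median record. Its ratio was 5.88 (5.11 with 1 FPKM added in place of 0.1), against 3.76 in control and 1.22 in 7SK knockdown. Anxa1 (chr19:20373428-20390944), a calcium-dependent phospholipid-binding protein, had 32.0 FPKM in the axon and 1.05 in the soma, a ratio of 5.36 (4.47 with 1 FPKM added). Its relatives Anxa3 (20.5 and 1.17 FPKM, ratio 4.57) and Anxa2 (119 and 11.2 FPKM, ratio 3.95) were also among the highest. All 3 annexin RNAs were axon-rich in control cells as well, at 3.20, 3.91 and 3.24.

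The cytoskeletal RNAs Acta2 and Tagln were among the most abundant of these. Acta2 (chr19:34241090-34255336), smooth muscle actin, reached 673 FPKM in the axon and 59.5 in the soma, a ratio of 4.05. Control values were 526 and 82.8 FPKM (3.25), and in 7SK knockdown they were 176 and 130 FPKM (0.91). Tagln, the actin-binding transgelin, had 332 and 21.3 FPKM, with ratios of 4.51 in hnRNP R knockdown, 3.81 in control and 1.82 in 7SK knockdown. Tubb6, a beta-tubulin, had 70.2 FPKM in the axon and 6.73 in the soma (3.92), close to its control ratio of 3.74. Ctgf, a matricellular growth factor gene, had a ratio of 4.31 in hnRNP R knockdown and 5.25 in control; the other 14 of the 15 highest records had a lower ratio in control than in the knockdown values by which they were ranked.

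The remaining records among the 15 highest were Gm15564, Cxcl10, Hist1h2bj, Rps19-ps6, Nfkb2, Gm26461 and Litaf, with ratios from 3.94 to 5.12. Gm15564, a long noncoding RNA, was the brightest of them at 684 FPKM in the axon and 28.8 in the soma. Cxcl10, a chemokine, had 23.0 FPKM in knockdown axons, 3.28 in control axons and 8.40 in 7SK knockdown axons, and 1.14 FPKM in knockdown somata. Rps19-ps6 is a pseudogene of a ribosomal protein, so its reads may belong to the parent gene. Of the 15 highest, 14 were axon-rich in control cells too and 6 in 7SK knockdown cells, and all 15 lay above the median record in both.

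**Figure D3:**
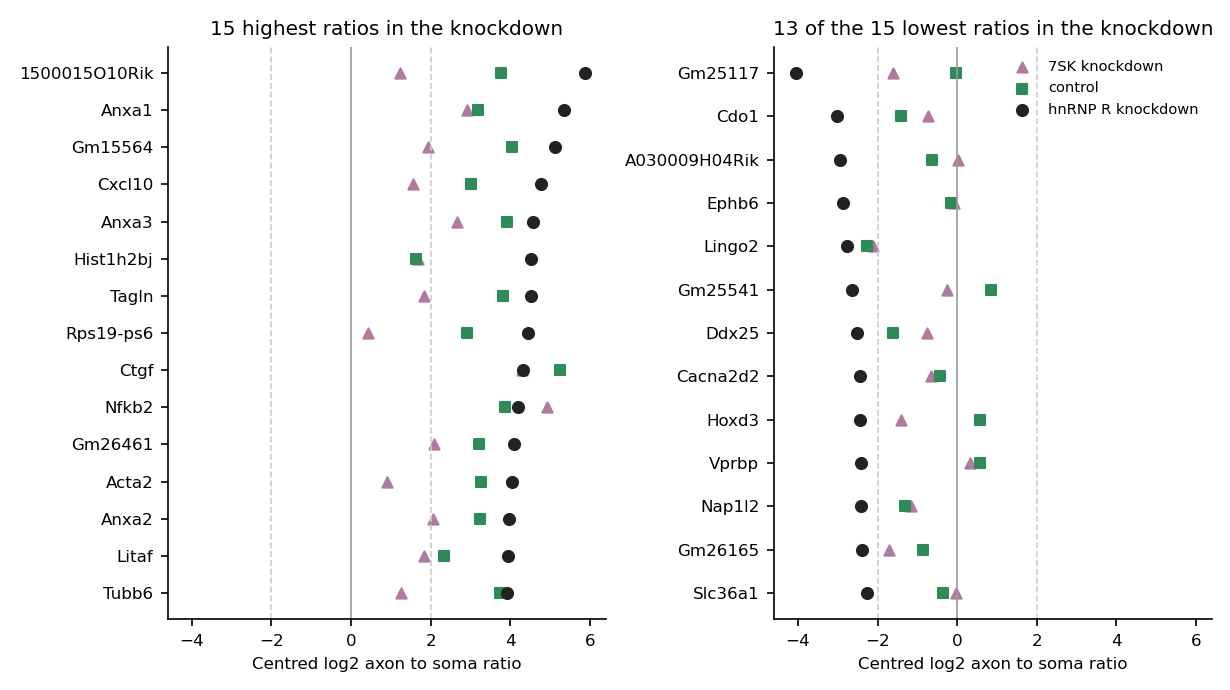
Centred log2 axon to soma ratio of the 15 highest (left) and of 13 of the 15 lowest (right) single-gene records of at least 20 FPKM that were above 0 in both compartments, in hnRNP R knockdown (circles), control (squares) and 7SK knockdown (triangles); dashed lines mark 4-fold. The high ratios recur in control cells, 14 of 15 past 4-fold, whereas 1 of the 13 low ones shown is past 4-fold there.

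The 15 records most tilted to the soma were of mixed kinds, 2 of them snoRNAs. Lowest among records above 0 on both sides was Gm25117, annotated as a snoRNA, with 2.98 FPKM in the axon and 74.9 in the soma, a ratio of -4.05. Its ratio was -0.02 in control and -1.61 in 7SK knockdown. Lingo2 (chr4:35706647-36951747), a leucine-rich repeat protein of the neuronal surface, had 2.32 FPKM in the axon and 24.0 in the soma. It was axon-poor in all 3 groups, at -2.76, -2.27 in control and -2.11 in 7SK knockdown.

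Several of the lowest RNAs stood near the middle in control cells. Cacna2d2 (chr9:107399612-107529346), an auxiliary calcium channel subunit, had 5.25 FPKM in knockdown axons and 42.6 in the soma (-2.44). Its control values were 21.7 and 44.2 FPKM (-0.43). Hoxd3, a homeobox transcription factor, had 3.36 and 27.5 FPKM (-2.44) against a control ratio of 0.57. Cdo1, A030009H04Rik, Ephb6, Gm25541, Ddx25, Vprbp, Nap1l2, Gm26165 and Slc36a1 were also among the 15 lowest, from -3.02 to -2.26. Of the 15 lowest, 11 lay below the median record in control and 13 in 7SK knockdown. The axon levels of all 15 were between 1.79 and 5.25 FPKM.

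Some bright records were listed at 0 on 1 side. The 5 brightest somatic records listed at 0 in knockdown axons were all snoRNAs: Gm23201 at 44.9 FPKM in the soma, Snord100 at 40.7, Gm24264 at 29.2, Gm25449 at 27.5 and Gm25107 at 25.7. In control axons Gm24264 and Gm25449 were also listed at 0, whereas Snord100 had 14.6 FPKM. In the other direction, Cnn1, the smooth muscle protein calponin, had 17.3 FPKM in the axon and was listed at 0 in the soma. Its control values were 20.9 and 0.50 FPKM. Gm24044 (15.2 FPKM), Actg2 (14.1), a smooth muscle actin, Chtf18 (12.9), a replication factor, and Gm12306 (11.9) followed. No fold is given for these records because the low side is 0.

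The bulk of the summed FPKM on both sides came from a few loci. FPKM is scaled to transcript length, so such a share is not a share of the reads. Gm26924 (chr17:39846958-39848827) held 47.5% of the summed FPKM in knockdown axons and 38.6% in somata, with a ratio of 1.06. Beside it lies Gm26917 (chr17:39845074-39846245), at 4653 and 7391 FPKM and a ratio of -0.11. Among records of the mitochondrial genome, the merged record named mt-Nd1 and mt-Nd2 had 115789 FPKM in the axon and 60355 in the soma (1.497). It spans bases 1 to 5016 of that genome, so its value cannot be assigned to the 2 named genes. The record of mt-Cytb had 4581 and 2608 FPKM (1.37). The record of Lars2, mitochondrial leucyl-tRNA synthetase, had 6032 and 2683 FPKM (1.73), close to its control ratio of 1.68. Which RNAs the reads at Gm26924, Gm26917 and Lars2 come from was not tested. Actb, beta-actin and the mRNA bound by hnRNP R in earlier work, had 2381 FPKM in the axon and 1164 in the soma, with a ratio of 1.59 against 1.33 in control and 0.75 in 7SK knockdown. The difference from control was smaller than the median difference of records at that level.

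A single short record, mmu-mir-6236 (hairpin chr9:110281287-110281409), had the highest FPKM of the axon-rich records, at 12072 in the axon and 3332 in the soma (2.41). Its control ratio was 2.29 and its 7SK knockdown ratio 0.97. Its mature sequence is shown because it is the 1 miRNA among the 10 records of highest FPKM in axons; it is taken from RefSeq (GRCm38.p6, chr9:110281353-110281371, plus strand), with the seed, bases 2 to 8, in capitals.
mmu-miR-6236: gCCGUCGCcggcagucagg
Total RNA libraries of this kind do not measure mature miRNAs, so the value describes reads at the hairpin locus.

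The gene groups were then read as lists, each by its median ratio and by how many members were axon-rich or axon-poor. These shares stand against 9.88% axon-rich and 7.43% axon-poor over all kept records. Members called highest or lowest are so among the list's records of at least 5 FPKM. Lists with medians between 0 and 0.56 are above the median record but, without centring, lie on the somatic side.

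**Figure D4:**
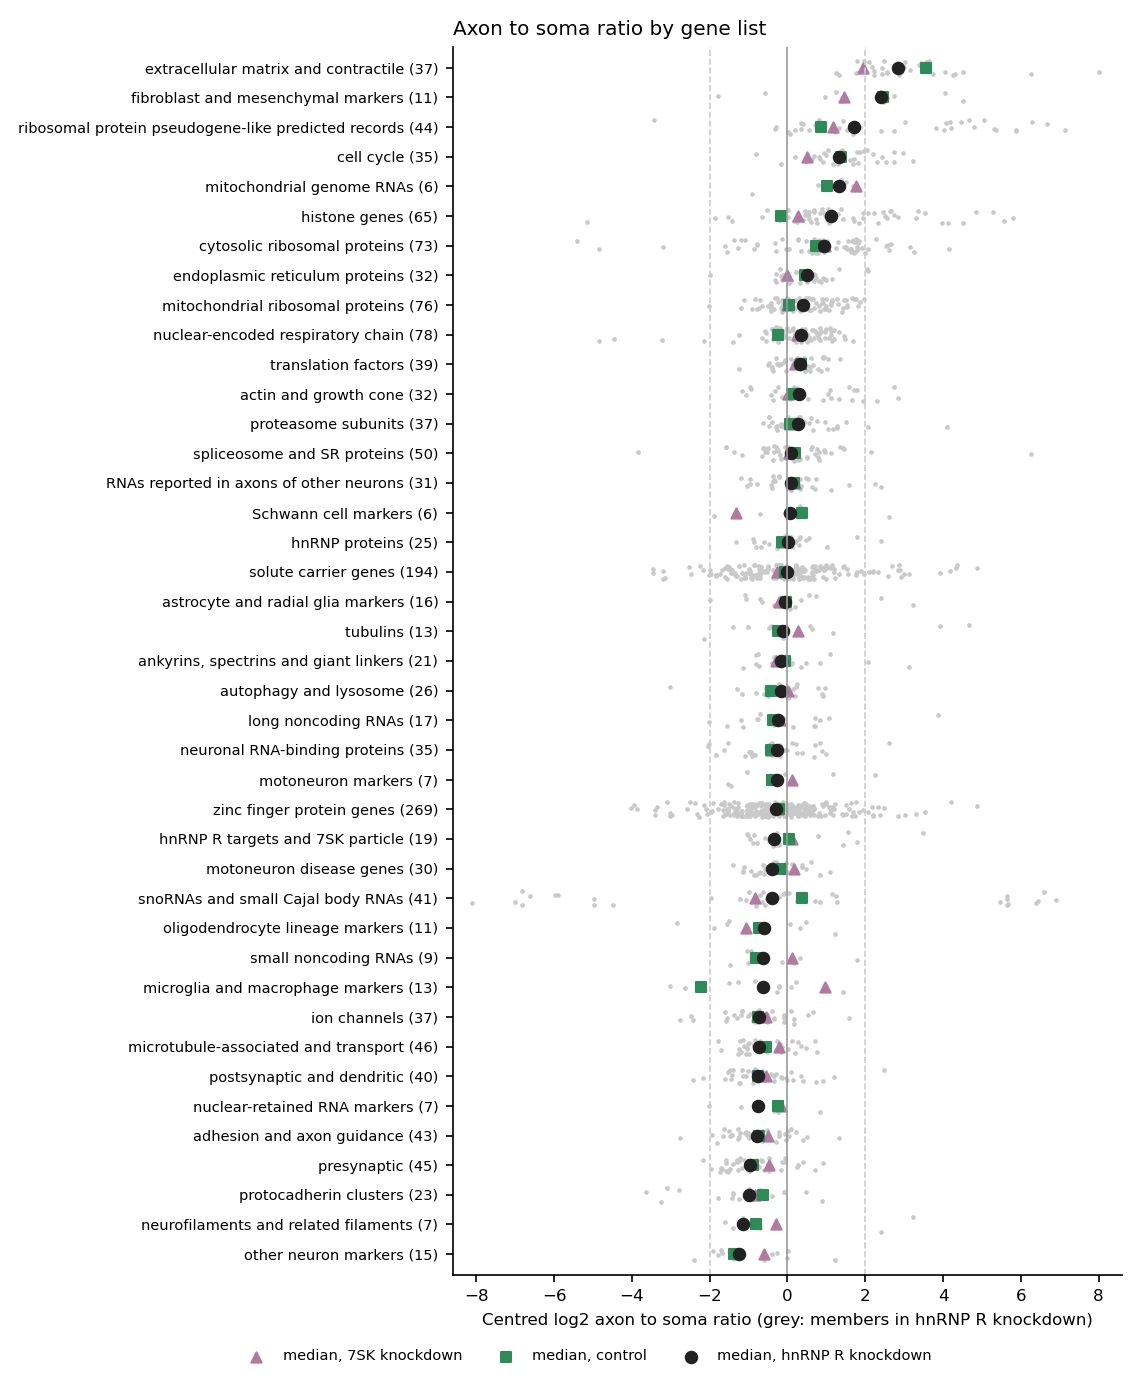
Centred log2 axon to soma ratio of each gene list with at least 5 kept records (number in brackets). Grey points are members in hnRNP R knockdown, and symbols are list medians in hnRNP R knockdown (circle), control (square) and 7SK knockdown (triangle); extracellular matrix and contractile genes lie highest and markers of other neurons lowest.

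Extracellular matrix and contractile genes formed the most axonal list. Its 37 kept members had a median ratio of 2.84, all 37 lay above the median record, and 30 (81.1%) were axon-rich. Summed over the list, knockdown axons held 3662 FPKM and somata 601. The medians were 3.57 in control and 1.95 in 7SK knockdown. Besides Cnn1 and Tagln, Tpm2, a tropomyosin, had 18.9 FPKM in the axon and 0.27 in the soma. At the low end of the list stood Lamb1, a laminin chain, with 14.7 and 6.27 FPKM (1.78), Cnn3 (1.75) and the basement membrane protein Nid1 (1.33). Several of these genes, among them Cnn1 and Tagln, are typical of fibroblasts or smooth muscle rather than of neurons, but not every member is.

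Markers of fibroblast and mesenchymal cells, several of which the list above also holds, had the same tilt. Of 16 such markers 11 were kept, 9 lay above the median record and 6 were axon-rich, with a median of 2.40. Thy1 (4.11 and 21.4 FPKM, -1.80) and Pdgfra (6.85 and 15.3 FPKM, -0.59) lay below the median record. That median was 1.56 with 1 FPKM added and 1.24 with no minimum level, which brings in faint markers left out here. Their summed level was 1597 FPKM in knockdown axons and 277 in somata, and 1453 and 322 FPKM in control. Most of the sum in knockdown axons came from Acta2 (673 FPKM), Vim (439) and Tagln (332). Acta2 and Tagln are also in the list above. Col1a1, a collagen chain, had 14.6 and 3.76 FPKM and Fn1, fibronectin, 117 and 26.0 FPKM. Dcn, Lum, Mgp and Twist1, which mark fibroblasts more specifically, were listed at 0 in knockdown axons. The part of non-neuronal cells in the axonal compartment was not tested. In bulk RNA more cells of a type and more RNA per cell cannot be told apart.

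Of 12 endothelial markers only 4 were kept. Among them, Eng shares a merged record with Ak1, and Egfl7 with Fam69b and Gm20532, so these 2 values may belong to the neighbours. The median of the 4 was 0.97, and all 4 were above the median record. Flt1, a receptor of vascular growth factor, was axon-rich but faint, at 1.08 and 0.21 FPKM (2.48). Pecam1, Cdh5, Tie1 and Vwf, which define these cells, were listed at 0 in both compartments. Schwann cell markers had a median of 0.07 over 6 kept records, with the myelin protein gene Pmp22 axon-rich (16.5 and 3.90 FPKM, 2.61). Astrocyte and radial glia markers had a median of -0.05 over 16 kept records, of which Nes (3.22) and Vim (2.40), shared with the filament and mesenchymal lists, were axon-rich. Oligodendrocyte markers had a median of -0.60 over 11 records. Microglia markers had a median of -0.64 over 13 records, with 59.03 FPKM summed in the axon and 133 in the soma, and the medians were -2.21 in control and 0.97 in 7SK knockdown. Motoneuron markers had a median of -0.27 over 7 kept of 15 records, and of -1.05 with no minimum level. Most defining motoneuron genes were near or at 0: Chat, Mnx1 and Isl2 were listed at 0 in both compartments of knockdown cells, and Isl1 reached 0.57 FPKM in the soma. Exact zeros were not limited to such genes: Rps6, a ribosomal protein that every cell makes, was listed at 0 in the soma. What the zeros stand for was not tested. Stmn2, a growth-associated neuronal gene, had 119 FPKM in the axon and 361 in the soma (-1.05), and Uchl1 76.8 and 137 FPKM (-0.27). Slit3 (9.44 and 2.85 FPKM, 2.25) and Slit2 (29.0 and 18.9 FPKM, 1.17), secreted guidance cues on the same list, lay on the axonal side. Markers of other neurons had a median of -1.25 over 15 records.

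Cell cycle genes, which postmitotic neurons express little, were also on the axonal side. Of 35 kept members 33 lay above the median record and 9 (25.7%) were axon-rich, with a median of 1.34 against 1.37 in control and 0.51 in 7SK knockdown. Ccnd1, cyclin D1, had 51.3 FPKM in the axon and 8.00 in the soma (3.22). Mcm2, a replicative helicase subunit, had 14.2 and 2.57 FPKM (2.98), and the mitotic kinase Aurka 11.8 and 2.50 FPKM (2.75). Cenpf, a kinetochore protein, was lowest at -0.80, against 2.73 in control.

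Histone genes had the widest gap between knockdown and control among lists of 20 or more kept records. Of 65 kept members 58 lay above the median record and 20 (30.8%) were axon-rich, with a median of 1.12 in hnRNP R knockdown, -0.16 in control and 0.27 in 7SK knockdown. Summed over the list, axons held 1537 FPKM and somata 1064, against 720 and 1249 FPKM in control. The ratio was above the control ratio in 56 members, and the median difference from control over the list was 1.48. Hist1h2bj had 22.6 FPKM in the axon and 1.35 in the soma (4.52), Hist1h2bn 13.7 and 1.64 FPKM (3.55), and Hist1h3c 25.2 and 3.54 FPKM (3.35). Hist3h2ba, one of the low members, had 13.9 and 55.0 FPKM (-1.42). Histone genes are near-identical copies, so their reads may be split between members, and no member's change from control passed the test described at the end.

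The translation machinery was mostly on the axonal side. Of 73 kept cytosolic ribosomal protein records, 56 lay above the median record, and the median was 0.93, against 0.73 in control and 0.98 in 7SK knockdown. Together they amounted to 6910 FPKM in knockdown axons and 4647 in somata. Of these records 9 (12.3%) were axon-rich, near the share of all kept records. Rps18 (9.56 and 0.70 FPKM, ratio 4.15), Rpl9 (3.25) and Rpl36 (3.16) were highest, whereas Rpl10 (8.59 and 30.7 FPKM, -1.27), Rpl5 (-1.61) and Rpl36a (listed at 0 in the axon, 6.21 FPKM in the soma) were lowest. These genes have many processed pseudogenes that can take their reads. The 44 kept records named as ribosomal protein pseudogenes had a median of 1.70, and 19 of them were axon-rich.

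Ribosomal protein mRNAs usually begin with a run of pyrimidines, by which their translation is controlled together. A run of at least 5 C or T bases that starts with C within 5 bases of the start site was searched on the transcribed strand of RefSeq promoter windows (250 bases before to 50 after the start, GRCm38.p6). It was present in 26 of 53 ribosomal protein records with a window (49.1%), in 21.2% of all genes with a window and in 6 of 34 presynaptic records (17.6%). Windows of 30 bases, from 10 before to 20 after the start, are printed for the 4 ribosomal protein genes of highest ratio with a run in the first window and at least 20 FPKM. The presynaptic genes Rab3c and Vamp1, chosen for their low ratio, are set beside them. Because the printed genes were chosen by ratio, and the ribosomal ones also by the run, the contrast between them is set by the choice. Capitals mark the run.
Rps24 (chr14:24490668-24490697, plus strand): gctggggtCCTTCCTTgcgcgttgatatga
Rps9 (chr7:3704031-3704060, plus strand): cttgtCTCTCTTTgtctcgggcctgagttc
Rps15a (chr7:118116128-118116157, minus strand): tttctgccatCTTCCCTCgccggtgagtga
Rps27l (chr9:66946076-66946105, plus strand): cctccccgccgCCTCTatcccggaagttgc
Rab3c (chr13:110280187-110280216, minus strand): caactcccagaagctcacggggtccctggc
Vamp1 (chr6:125215571-125215600, plus strand): ctgcacctgcagtaagttccaccgcagtta
Rps24 had 29.5 FPKM in the axon and 11.5 in the soma (1.91), Rps9 135 and 56.3 FPKM (1.82), Rps15a 51.9 and 22.7 FPKM (1.75) and Rps27l 37.1 and 16.2 FPKM (1.75). Rab3c had 5.10 and 29.8 FPKM (-1.97) and Vamp1 5.75 and 28.6 FPKM (-1.74). Among ribosomal protein records of at least 20 FPKM, the 11 with a run had a median ratio of 1.63 (range -1.10 to 1.91) and the 17 without a median of 0.92 (range -1.61 to 1.83), ranges that overlap almost fully. Of all records of at least 20 FPKM with a window, the run was found in 24 of 78 axon-rich (30.8%) and 0 of 18 axon-poor ones, against 488 of 2015 over all (24.2%). A match is a description of these letters and not of a working site.

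Mitochondrial and housekeeping lists lay slightly above the median record. Nuclear-encoded respiratory chain genes had a median of 0.35 over 78 records (-0.21 without centring), with 0 axon-rich and 4 axon-poor. Their control median was -0.25, and 62 of 78 had a higher ratio in the knockdown than in control. The median difference over the list was 0.50. Ndufb9 (29.1 and 13.3 FPKM, 1.68), Ndufa13 (26.4 and 13.9 FPKM, 1.48) and Ndufa2 (1.44), all subunits of complex I, were highest, and Ndufc1 (-1.40) and Uqcrb (-1.24) lowest among those named. Mitochondrial ribosomal proteins had a median of 0.40 over 76 records (-0.16 without centring) against 0.03 in control. Translation factors had a median of 0.32 over 39 records (-0.24 without centring) and 0.34 in control. Eif3i had 77.7 and 44.9 FPKM (1.35) and Eef1b2 106 and 75.7 FPKM (1.04), while Eef1a2, the neuronal form of the elongation factor, had 38.7 and 136 FPKM (-1.25). Proteasome subunits had a median of 0.28 (-0.28 without centring). Endoplasmic reticulum proteins had a median of 0.51 (-0.05 without centring) over 32 records, 23 of them above the median record. Ssr4, a translocon-associated protein, had 55.8 and 20.0 FPKM (2.04).

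Lists of synaptic, channel and guidance genes were on the somatic side. Presynaptic genes had a median of -0.96 over 45 records, 5 of them above the median record, with 0 axon-rich and 1 (2.22%) axon-poor. Control and 7SK knockdown medians were -0.90 and -0.48. Sv2c, a synaptic vesicle protein, had 2.54 FPKM in the axon and 17.4 in the soma (-2.17). Rims2, an active zone protein, had 13.6 and 10.5 FPKM (0.92) and the fusion factor Napa 45.0 and 40.7 FPKM (0.70). Postsynaptic genes had a median of -0.75 over 40 records, ion channels -0.72 over 37 with 3 axon-poor, and adhesion and guidance genes -0.77 over 43. Hcn2, a pacemaker channel, had 1.32 and 11.5 FPKM (-2.48). The guidance receptors Plxnb1 (12.6 and 7.31 FPKM, 1.34) and Robo2 (21.3 and 23.8 FPKM, 0.40) were among the 3 highest of their list.

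Cytoskeletal lists held members at both ends. Neurofilament and related genes had a median of -1.15 over 7 records, with Nefl, the light neurofilament chain, at 21.3 and 71.9 FPKM (-1.19) and Ina, alpha-internexin, at 33.6 and 130 FPKM (-1.39). The 2 axon-rich members were Vim and Nes, intermediate filaments of immature and mesenchymal cells. Among 13 tubulin records the neuronal Tubb3 (191 and 571 FPKM, -1.02) and Tubb4a (9.42 and 62.3 FPKM, -2.15) were low, the opposite end from Tubb6. Microtubule-associated and transport genes had a median of -0.73 over 46 records, 8 of them above the median record. Kif1a, the axonal kinesin of synaptic vesicle precursors, was the highest of those at 5 FPKM or more, with 162 FPKM in the axon and 145 in the soma (0.72), and Stmn4 the lowest at 25.3 and 129 FPKM (-1.79). Actin and growth cone genes had a median of 0.28 over 32 records (-0.27 without centring). Msn (moesin, 52.5 and 10.7 FPKM, 2.84) and Arpc1b (20.2 and 5.99 FPKM, 2.29) were highest, while the growth cone proteins Gap43 (222 and 638 FPKM, -0.96) and Basp1 (82.2 and 273 FPKM, -1.18) were among the lowest.

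RNAs for RNA-binding proteins were near the middle. hnRNP genes had a median of 0.02 over 25 records. The merged record of Raly was highest (96.7 and 26.9 FPKM, 2.40), and Ptbp1, the splicing regulator of non-neuronal cells, had 95.7 and 40.5 FPKM (1.79) while its neuronal relative Ptbp2 had 9.38 and 34.7 FPKM (-1.32). Hnrnpr itself had a ratio of -0.86 in both knockdown and control cells. Syncrip, the close relative of hnRNP R, shares a merged record with Snx14 and Gm20537 at 16.6 and 34.0 FPKM (-0.47). Neuronal RNA-binding proteins had a median of -0.27 over 35 records. Nova1 (3.42 and 21.3 FPKM, -2.05) and Rbfox3 (6.24 and 37.9 FPKM, -2.03) were axon-poor, and Cpeb1 (13.2 and 3.10 FPKM, 2.61), a regulator of polyadenylation, was axon-rich. Genes of the 7SK particle and known hnRNP R partners had a median of -0.35 over 19 records. Cdk9, the kinase of P-TEFb, had 11.8 and 4.98 FPKM (1.79) against a control ratio of 0.03. Motoneuron disease genes had a median of -0.39 over 30 records against -0.16 in control, with 9 above the median record. Pfn1, profilin, was the highest at 241 and 167 FPKM (1.08), and Tuba4a, an alpha-tubulin, the lowest at 3.53 and 13.9 FPKM (-1.39), with -2.31 in control.

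Noncoding RNAs differed from each other. Rn7sk, the 7SK RNA, had 4545 FPKM in knockdown axons and 13493 in somata (-1.01), with -1.32 in control. Rpph1, the RNA of ribonuclease P, had 2845 and 4643 FPKM (-0.15), and Rny3, a Y RNA, 929 and 3798 FPKM (-1.47) against -0.02 in control. Malat1, which is retained in the nucleus, had 288 and 715 FPKM (-0.75) against -0.37 in control. The 7 nuclear-retained markers together had 561 FPKM in axons and 1352 in somata. The merged Xist record stood at the axon-poor threshold, with 5.75 and 34.5 FPKM (-2.01), and at 32.0 and 28.7 FPKM in control (0.75). The 41 kept records named Snord, Snora or Scarna were split, with 9 axon-rich (22.0%) and 10 axon-poor (24.4%), many of them listed at 0 on 1 side. By RefSeq type, which takes in snoRNAs under other names, 73 kept single-gene records were snoRNAs. Of these 18 were axon-rich and 35 axon-poor. In RNAs this short a few fragments weigh heavily in a per-length value.

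Beyond the lists, axon-rich and axon-poor RNAs differed in kind. At 20 FPKM or more, 109 of 123 axon-rich records (88.6%) were protein coding by RefSeq, close to 89.5% of all records at that level, against 26 of 42 axon-poor records (61.9%). snoRNAs made up 9 of the 42 axon-poor records (21.4%), 0 of the 123 axon-rich ones and 0.656% of all records. The ratio also ran with the span of the locus in the deposited tables, which is the stretch of the record and may take in overlapping neighbours. The median was 0.40 for 351 records under 5 kb, -0.06 for 703 of 5 to 20 kb, -0.22 for 720 of 20 to 50 kb, -0.40 for 438 of 50 to 100 kb, -0.41 for 306 of 100 to 200 kb and -0.43 for 250 of 200 kb or more. Spearman's rho over the 2768 single-gene records was -0.23 in hnRNP R knockdown and -0.13 in control, as a description over records that share libraries.

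**Figure D5:**
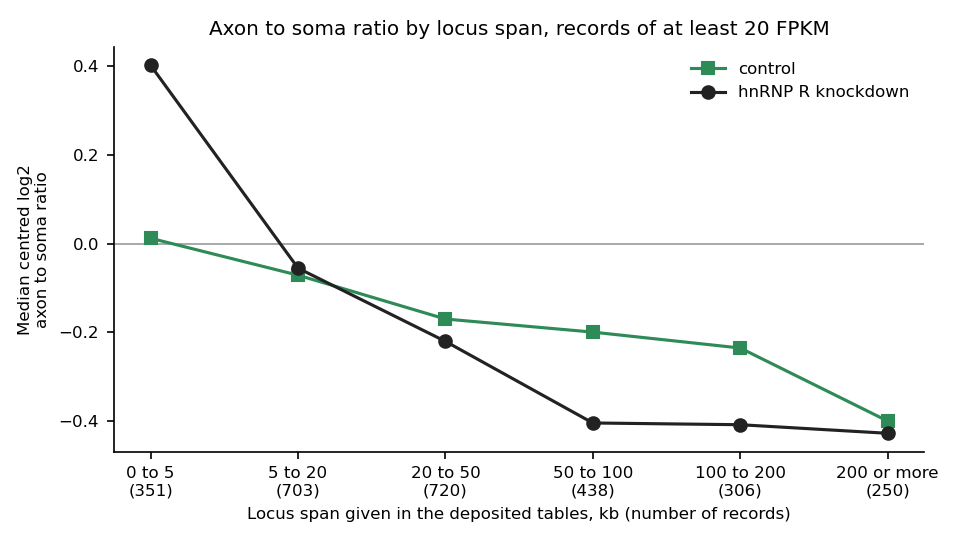
Median centred log2 axon to soma ratio by locus span for single-gene records of at least 20 FPKM, in hnRNP R knockdown (circles) and control (squares), with the number of records in brackets. Knockdown medians run from 0.40 under 5 kb to -0.43 at 200 kb or more, and control medians from 0.01 to -0.40.

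Contacts of hnRNP R could be set beside the ratios through iCLIP, in which ultraviolet light fixes a protein to RNA and the cDNAs that stop at the fixed site are counted. The 4 libraries from wild-type motoneurons were 2 of unfractionated cells, 1 of a cytoplasmic and 1 of a nuclear fraction. They held 91302 (nuclear) to 359005 cDNAs, and their counts were added together. Of 110 axon-rich records of at least 20 FPKM that matched an iCLIP gene, 39 had at least 10 cDNAs (35.5%, 95% Wilson interval 27.1 to 44.7). Of 24 axon-poor records 18 did (interval 55.1 to 88.0%), and of the 2444 records between 74.2%. Intervals cover counting error only and treat records from the same libraries as independent. In the 2 unfractionated libraries alone the shares were 30.0% of axon-rich records, 66.7% of axon-poor ones and 67.3% of those between. Lingo2 stood out among the 15 lowest with 7139 cDNAs, 7080 of them in introns, whereas Tagln and Acta2 had 4 each. Soma level and locus span ran with these shares. Axon-rich records had a median of 8.34 FPKM in the soma and 22.9 kb. Axon-poor ones had 28.1 FPKM and 82.0 kb, and the rest 32.4 FPKM and 32.1 kb. The classes are set by the axon to soma ratio, so the low soma level of axon-rich records is partly built in. The part of soma level and locus span in the difference was not tested. In the IgG library from NSC34 cells, a motoneuron-like hybrid line, 4.55%, 4.17% and 11.5% of the 3 classes had 10 cDNAs or more; it held 36280 cDNAs and comes from other cells.

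The classes of the knockdown cells were compared with those of the other groups at 20 FPKM or more. Of the 123 axon-rich records 67 (54.5%) were axon-rich in control cells, which is 85.9% of the 78 axon-rich there, and 118 lay above the median record in control. In 7SK knockdown 32 (26.0%) were axon-rich, 61.5% of the 52 there, and 114 lay above its median. Of the 42 axon-poor records 6 (14.3%) were axon-poor in control, 25.0% of the 24 there, and 29 lay below the median record. In 7SK knockdown it was 5 (11.9%), 13.2% of the 38 there, and 35 lay below. The records were selected on the knockdown value, so less extreme ratios elsewhere are built into these counts for both classes.

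Whether the axon to soma ratio of single RNAs changed from control was tested on the 1505 records that the authors had tested in both compartments. The change in the axon less the change in the soma was set against a standard error taken from the authors' p-values, with the median shift of 0.13 removed. After Benjamini-Hochberg adjustment 0 records passed (0%), and the smallest adjusted p from this z test was 0.671. At an unadjusted p under 0.05 there were 107 records (7.11%), 51 more and 56 less axonal. The median standard error was 0.57, and a change of 2.39 log2 units did not pass adjustment, so changes of several fold in a single record could go undetected. Axons and somata were treated as independent. Nothing says that the libraries of a group came from separate cultures, so the authors' p-values may measure technical spread only.

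The records nearest to a change are given as values. Mtx1, an outer mitochondrial membrane import protein, had 45.9 FPKM in knockdown axons and 21.3 in somata, against 8.92 and 23.7 FPKM in control. Its change was 2.39 with a standard error of 0.71 (adjusted p = 0.671, z test), and its axonal difference had q = 0.0437 in the authors' deposited table. The 7 that followed it were Mapk3 (1.93), Mfsd2a (2.25), Ldha (1.18), the histones Hist1h2al (1.70) and Hist2h2bb (1.56), Gm14303 (1.44) and Uqcrq (1.33). On the other side Canx, the endoplasmic reticulum chaperone calnexin, had 62.2 and 113 FPKM against 133 and 86.1 FPKM in control, a change of -1.62 with a standard error of 0.51. Pfkp (-1.89), Cldn25 (-2.13), Gigyf2 (-1.67), Fndc3a (-2.36), Smarca2 (-1.39), Dpp6 (-1.83) and Prrc2c (-1.33) followed. Among lists, 5 of 12 tested histone records had an unadjusted p under 0.05 in the more axonal direction. So did 3 of 11 mitochondrial ribosomal protein and 7 of 57 respiratory chain records, against 51 of 1505 over all tested records. In the less axonal direction it was 2 of 7 small noncoding RNAs and 2 of 17 presynaptic records. It was also 2 of 19 spliceosome and 2 of 26 translation factor records, against 56 of 1505 over all. None of them passed adjustment.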

How the data were processed

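Total RNA libraries of both chamber compartments were read from the authors' 4 deposited comparison tables (build GRCm38; FastQC 0.10.1 and Cufflinks 2.2.1 per the submitters' processing notes; the sources used here name no aligner or annotation release). The FPKM values are the authors' group values, which share a scale only within a table. The log2 fold changes, test statistics (score), p-values and q-values were also deposited by the authors. The same control libraries differed between the hnRNP R and 7SK tables by a median of 0.04 (axon) and -0.12 (soma) log2 units. iCLIP cDNA counts per gene were deposited with Ensembl release 59 on mm9, per the file headers, and were joined by gene name and RefSeq synonym. Of the iCLIP data 1300 other per-sample columns were not used here. The IgG library is taken as such from its title, since its header gives hnRNP R.

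The deposited values were analysed in Python 3.11.15 with pandas 2.3.3 and scipy 1.17.1. Records of at least 1 FPKM in either knockdown compartment were kept. Just inside this limit lay Glycam1 (1.00 FPKM) and just outside Gm26695 (0.9996 FPKM). At the 4-fold limit, 3110052M02Rik lay inside and Rdh10 outside (2.00 each), and Kif7 inside and Aqp4 outside (-2.00 each). Records listed at 0 in both compartments of control (369) or 7SK knockdown (634) have no ratio there. The z test of the change from control was tested on simulated data. Named records are the 15 highest and 15 lowest single-gene records of at least 20 FPKM above 0 on both sides, the 5 brightest listed at 0 on each side, the 10 highest in axons, the 8 smallest p each way, the 3 highest and lowest members of a list at 5 FPKM or more, the targets, Actb and marker genes; 3 records are not reported here. The members and the 43 lists were chosen with earlier results of these data known. Alternatives tried were the amount added, the level minimum, the centre, merged records and the fold limit.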

Additional observations from a re-analysis of the deposited data

How the results depend on the processing

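The counts of axon-rich and axon-poor records (1341 and 1009) moved with the treatment of faint records. They were 674 and 167 with 1 FPKM added, 586 and 249 with at least 5 FPKM in either compartment, 427 and 110 with at least 1 FPKM in both, and 156 and 28 among records with a completed test of the authors. With 1 FPKM added, 7 of the 15 highest ratios fell by more than 1.5-fold: 1500015O10Rik to 5.11, Anxa1 to 4.47, Cxcl10 to 3.96, Hist1h2bj to 3.80, Anxa3 to 3.77, Rps19-ps6 to 3.75 and Nfkb2 to 3.57. All 15 stayed at 3.40 or above, and 0 of the 15 lowest moved that far. The median of fibroblast and mesenchymal markers (2.40) was 1.56 with 1 FPKM added and 1.24 with no minimum, and that of motoneuron markers (-0.27) was -1.05 with no minimum. With no minimum 2017 were axon-rich, and at 8-fold 764 were. Axon-poor records numbered 1563 without centring and 1532 when scaled to summed FPKM without Gm26924. Under these scalings the median of all records moved by -0.56 and -0.53, and 7 values changed sign: respiratory chain -0.21 and -0.18, translation factors -0.24 and -0.22, actin and growth cone -0.27 and -0.25, endoplasmic reticulum -0.0472 and -0.0233, mitochondrial ribosomal proteins -0.16 and -0.14, proteasome -0.28 and -0.26, and n-R5-8s1 -0.24 and -0.22. With 1 cDNA as the minimum, the iCLIP shares were 80.0% of axon-rich and 95.8% of axon-poor records. The test of change from control gave 0 calls under each of its 4 alternatives, with 0 to 105 records at an unadjusted p under 0.05; it was 0 where the error came from the authors' test statistic. The causes were not tested. Centring on protein-coding records was chosen after seeing the data. No paired analysis was possible because each group has 1 deposited value per compartment, and leaving out single libraries could not be done for the same reason. Read depth is unknown, and levels under 5 FPKM limit what single ratios show.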

Other observations

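RNAs that other studies have reported in axons of other neuron types lay near the middle in hnRNP R knockdown cells. Their median ratio was 0.08 over 31 records, 17 of them above the median record and 2 axon-rich, against 0.17 in control and 0.19 in 7SK knockdown. Vim (2.40), Nfe2l2, a transcription factor of the oxidative stress response (8.85 and 2.68 FPKM, 2.24), and Actb (1.59) were highest. Nefl (-1.19), Mapt, which encodes tau (75.1 and 229 FPKM, -1.05), and Gap43 (-0.96) were lowest. Large linker proteins of the membrane skeleton had a median of -0.16 over 21 records, with 10 above the median record. Ahnak, a giant scaffold protein, had 5.36 FPKM in the axon and 0.83 in the soma (3.12), and Ank1, an ankyrin, 4.00 and 13.2 FPKM (-1.14).

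Protocadherins, adhesion proteins encoded in gene clusters, had a median of -0.99 over 23 records, of which 4 (17.4%) were axon-poor and 0 axon-rich. The brightest named member, Pcdhga9, had 46.3 FPKM in the axon and 90.0 in the soma (-0.40), and members of a cluster share exons, so their reads may be split. Zinc finger protein genes had a median of -0.30 over 269 records, with 13 axon-rich (4.83%) and 18 axon-poor (6.69%). Zfp688 (10.1 and 1.19 FPKM, 3.54) and Zfp169 (0.18 and 6.70 FPKM, -4.03) were the highest and lowest at 5 FPKM or more; their control ratios were 0.09 and 0.06. Solute carrier genes had a median of -0.03 over 194 records. Slc12a4, a potassium chloride cotransporter, had 31.3 and 6.20 FPKM (2.87), with 2.75 in control and 2.25 in 7SK knockdown. Autophagy and lysosome genes had a median of -0.16 over 26 records, with Ctsz, a cathepsin, at 13.9 and 10.4 FPKM (0.97) and Gabarapl2, an autophagosome protein, at 0.62 and 8.52 FPKM (-3.02) against -0.28 in control.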
